A study of Homo sapiens with 6 samples.

Results

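HEK293T cells, a human embryonic kidney line, were used to compare directly 2 mutants of DDX3X that are associated with medulloblastoma, a childhood brain tumour. One library came from cells that had received 5 µg of a plasmid for GFP-DDX3X G302V, and the other from cells that had received the same amount of a plasmid for GFP-DDX3X T275M. Both cultures were collected at 32 h and sorted by flow cytometry for GFP-positive cells, as were a GFP-alone library (GFP) and a wild-type GFP-DDX3X library (WT). The labels also mention 30 h for the plasmids. A control siRNA library and a DDX3X siRNA library, from cells treated for 48 h with no sorting described, complete the 6 libraries, so these 2 libraries of 6 carry the comparison. Every group holds 1 library, so no difference has a replicate check and no test between conditions was possible. All cells of the plasmid libraries kept their own DDX3X gene, and the transfection was transient. Where the study plots these libraries, the legend gives G302V and G325E in place of the labelled T275M and G302V. The labels were followed, and what the T275M library holds is known from its label alone.

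DDX3X is an RNA helicase of the DEAD-box family, enzymes that use ATP to remodel RNA and RNA-protein complexes. It takes part in the initiation of translation and is found in stress granules, the cytoplasmic bodies in which stalled initiation complexes and mRNAs collect. Both mutants change a residue of the helicase core. RNA-seq reports the level of each mRNA and not its translation, so the comparison asks which mRNA levels differed between cells that expressed one mutant or the other.

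Levels are in RPKM, that is, reads scaled to a library of 1000000 reads and to 1 kilobase of row length. Of 23204 symbols, 12524 had 1 RPKM or more in either mutant library and a row of at least 200 bases, and these were compared. A difference is log2(RPKM + 1) in G302V minus that in T275M, with a 95% counting interval from the reads behind both values in parentheses. A gene was called at a difference of 1 (2-fold) or, more loosely, 0.58 (1.5-fold). The libraries held 47550000 reads (T275M) and 43720000 reads (G302V), and the deepest of the series 180870000. The labels give the cell type as neuronal, so the markers of neurons and of the kidney lineage were examined. Of 15 neuronal markers 6 reached the minimum, and their summed level of 641 to 837 RPKM over the 6 libraries came almost wholly from the neurofilament genes NEFM and NEFL. ELAVL4 was at 0 in every library and STMN2, DCX, ELAVL3 and MAP2 were below 0.1 RPKM in every library. Of the kidney lineage markers, GATA3 was at 12.1 RPKM in T275M and 10.0 in G302V, WT1 at 3.27 and 3.65 RPKM and LHX1 at 2.21 and 1.96 RPKM, whereas UMOD was at 0 in every library. A count of 0 allows up to 3 reads, which is 0.0686 per 1000000 reads in the G302V library.

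DDX3X itself was expressed at unequal levels from the 2 mutant plasmids. It stood at 119 RPKM in GFP, 2894 in WT, 3279 in T275M, 1906 in G302V, 107 in control siRNA and 31.3 in DDX3X siRNA. G302V was thus lower than T275M by 0.78 on the log2 scale (-0.79 to -0.78), and both mutants lay far above GFP. Reads of the plasmid and of the endogenous gene cannot be separated in these values. With 1 library of each mutant, the change of residue and the level of the plasmid cannot be told apart in any difference below. The sort kept cells positive for GFP, which is fused to DDX3X in these plasmids. As the libraries are bulk, fewer cells that express a gene and less of its RNA per cell cannot be told apart among the sorted cells. The paralog DDX3Y stayed under the minimum, at 0.558 RPKM in T275M and 0.709 in G302V. It was at 0.0284 RPKM in GFP, 0.519 in WT, 0.0099 in control siRNA and 0.0037 in DDX3X siRNA, so it was higher wherever a DDX3X plasmid was given. Whether its reads are misplaced DDX3X reads was not tested. DDX3X lies on the plus strand of chromosome X (41192601 to 41223725, GRCh37), and the changed codons are in coding sequence of exons 9 and 10, 27 residues apart in a protein of 662 residues. The reference sequence around each is shown because these codons are the designed difference between the libraries, with the changed codon in capitals (chrX:41203322-41203360 and chrX:41203513-41203551, plus strand).
T275M site: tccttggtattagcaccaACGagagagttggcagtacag
G302V site: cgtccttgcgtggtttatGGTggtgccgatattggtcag

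The mRNA profiles of the mutants were close, and the genes that separated them were mostly lower in G302V. Levels, taken as log2(RPKM + 1), correlated across the 12524 genes with Pearson's r of 0.996, where genes are not independent replicates. The median difference was -0.03, and 95% of differences lay between -0.40 and 0.26. At 2-fold, 11 genes were lower in G302V (0.0878% of genes compared) and 1 was higher (0.00798%). At 1.5-fold, 93 were lower (0.743%) and 10 were higher (0.0798%). All 103 of these had a counting interval that left out 0, as did 52.3% of all genes compared, so the interval alone does not set the called genes apart. The calls grade into the other genes. EGR1 (-1.01) lay just inside the 2-fold limit and CLK1 (-0.95) just outside, and ZNF530 (-0.587) and ZSCAN16 (-0.583) stood on either side of the 1.5-fold limit, as did HSP90AA4P (0.609) and LOC100862671 (0.583) among the higher genes. The lower genes were mostly of low expression, with 57 of the 93 in the lowest quintile of mean RPKM. Median-ratio scaling of the libraries raised the median of all genes by 0.05 and gave 71 lower and 14 higher genes at 1.5-fold.

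**Figure D1:**
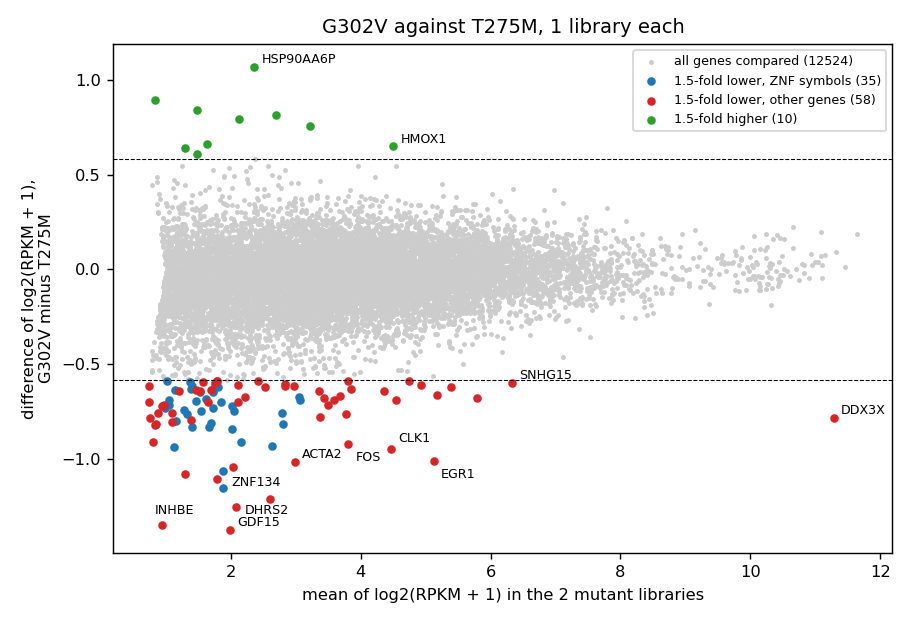
Each point is 1 of the 12524 genes compared, with its mean log2(RPKM + 1) in the 2 mutant libraries on the x axis and the difference, G302V minus T275M, on the y axis. The dashed lines mark 1.5-fold, below which lie 93 genes (35 ZNF symbols in blue, 58 others in red) and above which lie 10 (green).

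The 11 genes lower at 2-fold included 3 for secreted signals (GDF15, INHBE and LIF) and 2 ZNF symbols. GDF15, a secreted stress cytokine (chromosome 19, 18485541 to 18499986), was at 0.213 RPKM in GFP, 3.44 in WT, 5.35 in T275M, 1.45 in G302V, 0.296 in control siRNA and 0.332 in DDX3X siRNA. It was nearly absent without a DDX3X plasmid, and its difference between the mutants was -1.37 (-1.61 to -1.13). INHBE, an inhibin beta subunit (chromosome 12, 57846106 to 57853063), was at 0.284 RPKM in GFP, 1.73 in WT, 2.07 in T275M, 0.206 in G302V, 0.267 in control siRNA and 0.104 in DDX3X siRNA. Here G302V lay with the libraries that had no DDX3X plasmid, with a difference of -1.35 (-1.47 to -1.19) on 22 reads against 240. LIF, a cytokine of the interleukin-6 family (chromosome 22, 30636442 to 30642748), was at 0.427 RPKM in GFP, 3.18 in WT, 4.05 in T275M, 1.34 in G302V, 0.351 in control siRNA and 0.371 in DDX3X siRNA. G302V took a place between GFP and WT, and the difference was -1.11 (-1.24 to -0.97). DHRS2, a short-chain dehydrogenase (chromosome 14, 24099324 to 24114848), was at 1.73 RPKM in GFP, 7.92 in WT, 5.48 in T275M, 1.72 in G302V, 2.15 in control siRNA and 1.95 in DDX3X siRNA, with a difference of -1.25 (-1.45 to -1.05). NUPR1, a stress-induced nuclear protein (chromosome 16, 28544029 to 28550329), was at 1.13 RPKM in GFP, 2.95 in WT, 2.57 in T275M, 0.693 in G302V, 0.794 in control siRNA and 0.103 in DDX3X siRNA. Its difference was -1.08 (-1.37 to -0.75) on 26 reads against 105. For both DHRS2 and NUPR1, G302V was at or below GFP while T275M was nearer to WT than to GFP. ACTA2, smooth muscle actin (chromosome 10, 90694831 to 90751096), was at 1.59 RPKM in GFP, 7.10 in WT, 10.2 in T275M, 4.55 in G302V, 1.60 in control siRNA and 2.43 in DDX3X siRNA, with a difference of -1.02 (-1.19 to -0.84). HIST2H4B, a histone H4 gene that shares its sequence with other copies, was at 2.58 RPKM in GFP, 16.3 in WT, 8.28 in T275M, 3.0 in G302V, 2.73 in control siRNA and 2.16 in DDX3X siRNA, with a difference of -1.21 (-1.47 to -0.95). The remaining lower genes at 2-fold were ZNF134, ZNF211, the uncharacterised LOC647946 (-1.04) and EGR1.

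**Figure D2:**
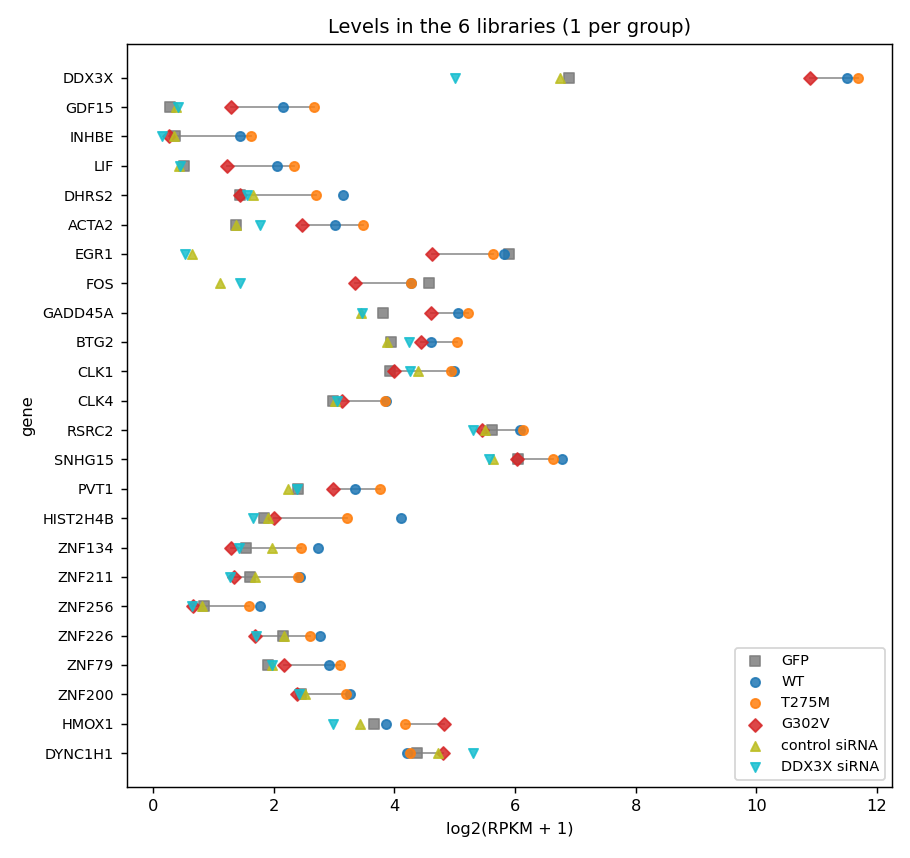
Levels of 24 genes (all but ZNF256 described in the text), as log2(RPKM + 1) on the x axis, in the 6 libraries (1 symbol per library, grey lines joining the 2 mutants). T275M lies nearer WT than GFP. G302V lies beside or near GFP in the ZNF symbols, CLK1, CLK4, RSRC2, SNHG15, DHRS2, INHBE and HIST2H4B. It lies nearer WT in DDX3X, ACTA2, GADD45A and BTG2, and about midway in GDF15, LIF and PVT1. EGR1 and FOS have their high values in GFP, WT and T275M, and HMOX1 and DYNC1H1 are higher in G302V than in T275M.

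The immediate-early genes, transcription factors and feedback proteins that cells induce within minutes of a stimulus, had most of their members slightly lower in G302V. Of 43 on the list 35 were compared, with a median of -0.17 beside -0.03 over all genes, and 33 of the 35 were below 0, beside 58.4% of all genes compared. At 1.5-fold 4 of the 35 were lower, beside 0.743% of all genes, and 0 higher. EGR1, a zinc finger transcription factor (chromosome 5, 137801168 to 137804992), was at 58.9 RPKM in GFP, 55.2 in WT, 48.6 in T275M, 23.6 in G302V, 0.557 in control siRNA and 0.451 in DDX3X siRNA, with a difference of -1.01 (-1.07 to -0.95). FOS, a subunit of the AP-1 transcription factor (chromosome 14, 75745529 to 75748933), was at 23.0 RPKM in GFP, 18.4 in WT, 18.3 in T275M, 9.18 in G302V, 1.15 in control siRNA and 1.73 in DDX3X siRNA, with a difference of -0.92 (-1.03 to -0.82). For both genes G302V stood below the other 3 plasmid libraries and above both siRNA libraries. The arms differed in transfection, time and sorting, which cannot be told apart here. EGR1 and FOS were also the 2 exceptions among the 93 lower genes, as the only ones of them that were lower in WT than in GFP. GADD45B (-0.62) and BTG2 (-0.59) were the other members past 1.5-fold, and KLF2 (-0.56) and KLF6 (-0.52) followed. The AP-1 subunit JUN was at 167.1 RPKM in T275M and 148.3 in G302V (-0.17), and MYC was nearly level (-0.04). JUN and MYC fall outside the naming rule and were chosen after their values were seen.

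The promoter of EGR1 is shown because it holds 2 CArG boxes, the element bound by serum response factor, which are in capitals. The motif was searched on both strands of RefSeq promoters (GRCh38.p14, 250 bases before to 50 after the start), and as it reads as a CArG box on either strand each site was counted once. It was found in 0.993% of the 8860 compared genes with a promoter in the table, in 1.29% of all 35116 promoters and in 2 of the 23 immediate-early genes with a promoter (8.70%). Among genes lower at 1.5-fold, it was in 1 of 33 ZNF symbols and in 1 of 33 other genes (3.03% each), the latter being EGR1. The promoters of FOS and ACTA2 held none. A match is a description of the letters and not evidence of binding (EGR1, chr5:138465229-138465528, plus strand).
EGR1: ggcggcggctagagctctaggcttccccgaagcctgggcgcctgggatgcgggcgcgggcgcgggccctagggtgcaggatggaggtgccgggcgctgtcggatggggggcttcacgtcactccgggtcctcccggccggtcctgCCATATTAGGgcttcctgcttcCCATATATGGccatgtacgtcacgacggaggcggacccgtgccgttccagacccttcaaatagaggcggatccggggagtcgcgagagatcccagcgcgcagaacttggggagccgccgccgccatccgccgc

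Targets of p53, the stress-activated tumour suppressor, included 5 genes that were lower in G302V at 1.5-fold and 0 that were higher, of 30 compared (median -0.14, 27 below 0). Over all genes compared, 0.743% were lower at 1.5-fold and 58.4% were below 0. HEK293T cells carry a viral antigen that binds p53, and the list names the genes and not the activity of the factor. After GDF15, the largest differences were those of GADD45A, PLK2, BTG2 and FAS. GADD45A, a growth arrest protein, was at 13.1 RPKM in GFP, 32.1 in WT, 36.4 in T275M, 23.5 in G302V, 9.92 in control siRNA and 10.1 in DDX3X siRNA, with a difference of -0.61 (-0.70 to -0.52). FAS, a death receptor, was at 1.97, 4.70, 5.51 and 3.33 RPKM in GFP, WT, T275M and G302V, with a difference of -0.59 (-0.73 to -0.44). In both genes G302V lay between GFP and WT, and T275M was the highest of the plasmid libraries. The best known members did not follow at this size. CDKN1A, the p21 inhibitor of cell cycle kinases, was at 22.7 RPKM in T275M and 21.1 in G302V (-0.10, -0.18 to -0.02), both above 16.3 in WT, and MDM2, which degrades p53, was at 19.5 and 18.5 RPKM (-0.07). Both were named after their values were seen. PMAIP1, which encodes the cell death protein NOXA and was not on the list, was past 1.5-fold, at 44.4 RPKM in T275M and 27.7 in G302V (-0.66, -0.73 to -0.59).

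Genes of the integrated stress response, which the factor ATF4 induces when initiation factor eIF2 is phosphorylated, had a median of -0.18 over 38 compared, with 31 below 0 (58.4% of all genes). At 1.5-fold 2 of the 38 were lower (0.743% of all genes) and 0 higher. CTH, an enzyme of cysteine synthesis, was at 9.49 RPKM in GFP, 16.4 in WT, 14.2 in T275M, 8.41 in G302V, 10.7 in control siRNA and 5.78 in DDX3X siRNA, with a difference of -0.69 (-0.81 to -0.58). PPP1R15A, the phosphatase subunit that reverses eIF2 phosphorylation, followed at -0.55 (-0.65 to -0.46), and ASNS, asparagine synthetase, at -0.43 (-0.49 to -0.38). In the other direction 7 members were above 0, the highest at 0.29. The cystine transporter SLC7A11 was at -0.32. The 14 amino acid transporters compared ranged from -0.32 to 0.29, with a median of 0.06. Of these 9 were above 0, whereas 58.4% of all genes were below 0. Genes of the unfolded protein response of the endoplasmic reticulum also leaned opposite to the integrated stress response list, with a median of 0.11. Of 25 compared 20 were above 0, whereas 58.4% of all genes were below 0. None of the 25 reached 1.5-fold. HYOU1, a chaperone of that compartment, was at 53.9 RPKM in T275M and 67.5 in G302V (0.32, 0.28 to 0.36), and HSPA5, known as BiP, was at 133.8 and 152.3 RPKM (0.18, 0.16 to 0.21). The medians of the integrated stress response and unfolded protein response lists kept their sign under every alternative setting that was run.

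HMOX1, heme oxygenase, a target of the antioxidant factor NRF2 (chromosome 22, 35776354 to 35790207), was the 1 gene higher in G302V at 1.5-fold that is not a copy of another gene. It was at 11.7 RPKM in GFP, 13.5 in WT, 17 in T275M, 27.3 in G302V, 9.75 in control siRNA and 6.88 in DDX3X siRNA, with a difference of 0.65 (0.55 to 0.75) on 1897 reads against 1288. G302V was the highest library and DDX3X siRNA the lowest. The rest of the NRF2 list did not share its size. The median over 22 compared was 0.02, with 14 above 0, whereas 58.4% of all genes were below 0. FTL, ferritin light chain, was next highest at 0.25. The lowest member was at -0.32, the value also given above for SLC7A11. GCLC, an enzyme of glutathione synthesis, was at -0.23.

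The other 9 genes that were higher in G302V are copies of abundant genes. GENCODE types 7 of them as pseudogenes (HSP90AA6P, RPS10P7, UQCRBP1, RPL23P8, RPL13AP20, RPL13AP6 and HSP90AA4P), and PABPC3 and PPIAL4G are intronless relatives of PABPC1 and PPIA. The highest, HSP90AA6P, was at 3.69 RPKM in GFP, 2.45 in WT, 2.54 in T275M, 6.43 in G302V, 2.57 in control siRNA and 2.82 in DDX3X siRNA, with a difference of 1.07 (0.62 to 1.51) on 86 reads against 37. G302V was the highest of the 4 plasmid libraries in all 10 higher genes, beside 3094 of the 12524 genes compared. Choosing genes with G302V above T275M favours that count. In 7 of the 10 WT was below GFP, beside 4649 of the 12524. The parent genes did not move by a like amount, since HSP90AA1 was at -0.05, RPL13A at 0.07, RPL23 at -0.04, RPS10 at -0.05, UQCRB at -0.04, PABPC1 at 0.12 and PPIA at -0.02. Nor did pseudogenes as a class, as the 102 compared had a median of -0.06. The sources do not state how a read that matches several such copies was assigned, so these values are uncertain. Without pseudogene symbols, 3 genes were higher and 93 lower at 1.5-fold.

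The largest single family among the lower genes was that of the ZNF symbols, most of which encode C2H2 zinc finger proteins, and many of these carry a KRAB domain that recruits repressors of transposable elements. This grouping was chosen after the values were seen. Of 529 ZNF symbols 382 were compared, with a median of -0.18, and 305 were below 0 (79.8%, beside 58.4% of all genes). At 1.5-fold 35 were lower (9.16% beside 0.743% of all genes compared) and 0 were higher. The difference was larger on chromosome 19, which holds the great clusters of this family. The 156 ZNF symbols there had a median of -0.30, with 141 below 0 and 28 lower at 1.5-fold, whereas the 226 elsewhere had a median of -0.12 and 7 lower. The 696 other genes of chromosome 19 had a median of 0.02 and 5 lower, so the lower values did not extend to the chromosome as a whole. The median level of the chromosome 19 ZNF symbols was 1.78 RPKM in GFP, 2.71 in WT, 2.78 in T275M, 1.72 in G302V, 2.04 in control siRNA and 1.75 in DDX3X siRNA. WT and T275M were therefore alike, and G302V lay with GFP.

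**Figure D3:**
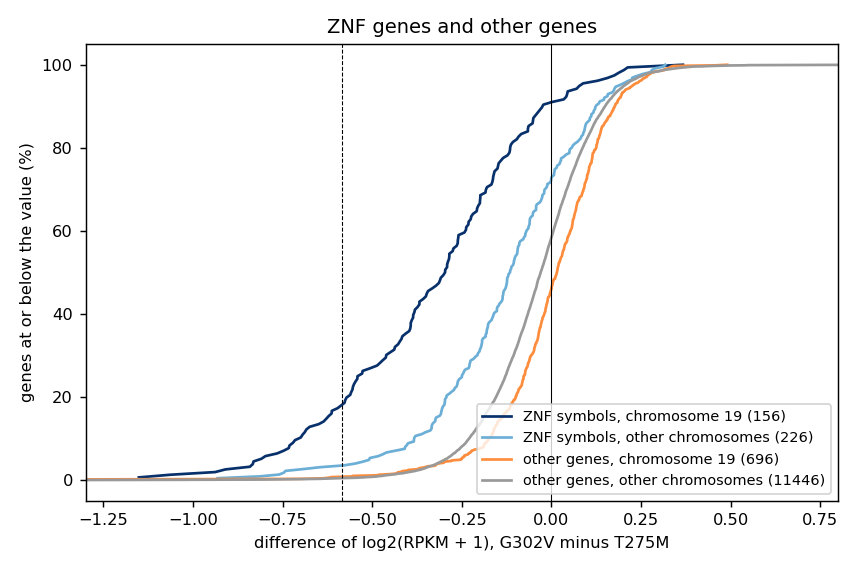
Cumulative share of genes (y axis, %) at or below each difference of log2(RPKM + 1), G302V minus T275M (x axis), for ZNF symbols and other genes on chromosome 19 and on other chromosomes, with a dashed line at 1.5-fold lower. The curve of the 156 ZNF symbols on chromosome 19 lies furthest to the left (median -0.30), ahead of the 226 elsewhere (-0.12), and the 696 other genes of chromosome 19 have the highest median (0.02).

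ZNF134 (chromosome 19, 58125601 to 58136092) was at 1.92 RPKM in GFP, 5.63 in WT, 4.45 in T275M, 1.46 in G302V, 2.91 in control siRNA and 1.70 in DDX3X siRNA, with a difference of -1.15 (-1.33 to -0.97). ZNF211, its neighbour (58141763 to 58155409), was at 2.03 RPKM in GFP, 4.42 in WT, 4.29 in T275M, 1.53 in G302V, 2.22 in control siRNA and 1.44 in DDX3X siRNA, with a difference of -1.06 (-1.23 to -0.89). In both, G302V was the lowest of the plasmid libraries and WT the highest. ZNF79 and ZNF200, on chromosomes 9 and 16, were at -0.93 (-1.09 to -0.78) and -0.81 (-0.93 to -0.69), so the largest values were not limited to chromosome 19. Along that chromosome the lower genes fell in several clusters, taken here as ZNF symbols less than 1000000 bases apart. The 16 compared between 44.1 and 45.6 Mb had the lowest median of the 18 clusters, -0.56, with 6 lower at 1.5-fold, among them ZNF226, ZNF227, ZNF222, ZNF225, ZNF180 and ZNF224. The 19 between 36.7 and 38.2 Mb had a median of -0.44 and all were below 0, as were all 23 between 52.1 and 54.0 Mb (-0.31). The 43 between 56.0 and 59.0 Mb had a median of -0.22 and 12 lower.

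Level and base composition moved with the ZNF result. In the lowest quintile of mean RPKM, 183 ZNF symbols had a median of -0.28 and 2322 other genes -0.05, with 29 and 28 lower at 1.5-fold. In the 2 highest quintiles the ZNF medians were 0.01 and 0.05 on 22 and 12 genes. With a minimum of 10 RPKM, 10 ZNF symbols of chromosome 19 were left and their median turned to 0.04. The quintile of genes with the lowest GC content had a median of -0.09 and that with the highest 0.04. Among genes in the lowest 40% of GC content, 212 ZNF symbols were at -0.25 and 4591 other genes at -0.07. Reads of family members of like sequence may have been divided between rows in a way that the sources do not state.

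The promoters of ZNF134 and ZNF226 are shown because they hold a motif that was frequent among the lower ZNF symbols. The motif searched was CCGGAAG, a core bound by ETS family factors, on both strands, and it is in capitals (here on the minus strand). It was found in 20 of the 33 lower ZNF symbols with a promoter in the table (60.6%), in 40.1% of 314 compared ZNF symbols, in 19.5% of compared genes, in 10.3% of all promoters and in 3 of 33 other lower genes (9.09%). On chromosome 19, 17 of 60 ZNF symbols with the motif and 9 of 80 without it were lower at 1.5-fold, with medians of -0.36 and -0.29. For ZNF symbols on other chromosomes, 3 of 66 with the motif and 4 of 108 without it were lower (4.55% and 3.70%), with medians of -0.13 and -0.10. Among genes other than ZNF symbols the share was smaller with the motif, 3 of 1601 beside 30 of 6945 without it (0.187% and 0.432%). Their medians were -0.04 with the motif and -0.02 without it. The CCAAT box, searched as CCAAT on both strands, was in 57.6% of the lower ZNF promoters, 45.9% of those of compared ZNF symbols and 37.3% of those of compared genes. The TATA box, searched as TATAAA, was in 3.03% and 5.18%. A CArG box can contain TATAAA or CCAAT, and the other motifs do not contain one another (ZNF134, chr19:57613992-57614291, and ZNF226, chr19:44164850-44165149, both GRCh38.p14, plus strand).
ZNF134: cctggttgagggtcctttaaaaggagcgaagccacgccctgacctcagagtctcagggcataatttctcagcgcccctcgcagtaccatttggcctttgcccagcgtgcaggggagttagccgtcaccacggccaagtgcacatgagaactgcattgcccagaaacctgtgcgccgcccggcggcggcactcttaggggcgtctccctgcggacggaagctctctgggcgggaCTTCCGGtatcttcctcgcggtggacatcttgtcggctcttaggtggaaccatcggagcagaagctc
ZNF226: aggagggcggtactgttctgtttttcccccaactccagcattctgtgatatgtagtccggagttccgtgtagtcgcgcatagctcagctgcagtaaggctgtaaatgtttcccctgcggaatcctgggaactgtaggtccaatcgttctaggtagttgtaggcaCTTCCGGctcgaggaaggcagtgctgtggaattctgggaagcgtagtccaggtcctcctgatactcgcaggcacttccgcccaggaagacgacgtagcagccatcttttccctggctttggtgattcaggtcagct

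CLK1 and CLK4, kinases that phosphorylate SR splicing factors, were lower in G302V, a group also chosen after its values were seen. CLK1 (chromosome 2, 201717732 to 201729414) was at 14.2 RPKM in GFP, 30.9 in WT, 29.7 in T275M, 14.9 in G302V, 20.1 in control siRNA and 18.2 in DDX3X siRNA, with a difference of -0.95 (-1.04 to -0.86). CLK4 was at 6.92, 13.5, 13.4 and 7.76 RPKM in GFP, WT, T275M and G302V, with a difference of -0.72 (-0.83 to -0.61). In both genes T275M matched WT closely and G302V was within 1 RPKM of GFP. CLK3 (-0.24) and CLK2 (-0.21) were lower by less. RSRC2, an arginine and serine rich protein, was at 69.1 RPKM in T275M and 42.8 in G302V (-0.68, -0.73 to -0.63). The 33 hnRNP and SR splicing factor genes had a median of -0.10, with 28 below 0 (58.4% of all genes) and none past 1.5-fold in either direction. Among noncoding RNAs, PVT1 was at 12.5 RPKM in T275M and 6.87 in G302V (-0.78, -0.91 to -0.65), and SNHG15, a host of small nucleolar RNA, at 98.1 and 64.4 RPKM (-0.60, -0.67 to -0.52). Each was the only member of its list past 1.5-fold, 1 of 9 long noncoding RNAs and 1 of 16 small nucleolar RNA hosts (0.743% of all genes were lower). The list medians were -0.17 and -0.11, with 3 and 6 members above 0. SNHG7 was the highest host, at 0.40 (0.32 to 0.48). The replication-dependent histones, whose mRNAs lack a poly(A) tail, had a median of -0.46, but only 14 of 69 were compared, with 2 lower at 1.5-fold beside 0.743% of all genes. Reads of the histone genes cannot be divided with certainty between copies. The 4 CLK kinases had a median of -0.48.

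Housekeeping groups differed little. The 79 cytosolic ribosomal protein genes had a median of 0.01 and ranged from -0.11 to 0.22, the 40 translation initiation factors had a median of -0.01, and the 76 mitochondrial ribosomal protein genes -0.02. Respiratory chain subunits (74, -0.02), heat shock chaperones (23, -0.03), ribosome biogenesis genes (40, -0.03), cholesterol synthesis genes (25, -0.00), other DEAD-box and DEAH-box helicases (47, -0.05) and Wnt pathway genes (34, -0.02) were likewise near the median of all genes. No member of these 9 lists was past 1.5-fold in either direction. The medians of all but the cytosolic ribosomal proteins among them turned positive under median-ratio scaling, so their direction is not set by these data. Genes of DNA replication lay slightly lower (44, -0.11), with 38 below 0 beside 58.4% of all genes. So did those of mitosis (38, -0.07), tRNA synthetases (37, -0.07) and stress granule proteins (26, -0.06), and none in these lists was past 1.5-fold. E2F2, which drives replication genes, was the lowest of the replication list at -0.40. FOXM1, a driver of mitotic genes, was the highest of the mitosis list at 0.35. Of the mRNAs that the study names as bound by DDX3X, 9 had a median of -0.04. The lowest was PNN, from 88.5 RPKM in T275M to 75.4 in G302V (-0.23, -0.26 to -0.20), followed by HELLS (-0.21), HNRNPA1 (-0.19) and HNRNPA2B1 (-0.18), whereas EEF1A1 was at 0.09. DDX10 (-0.03) and TPR (-0.02), named as not bound, had counting intervals that included 0.

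**Figure D4:**
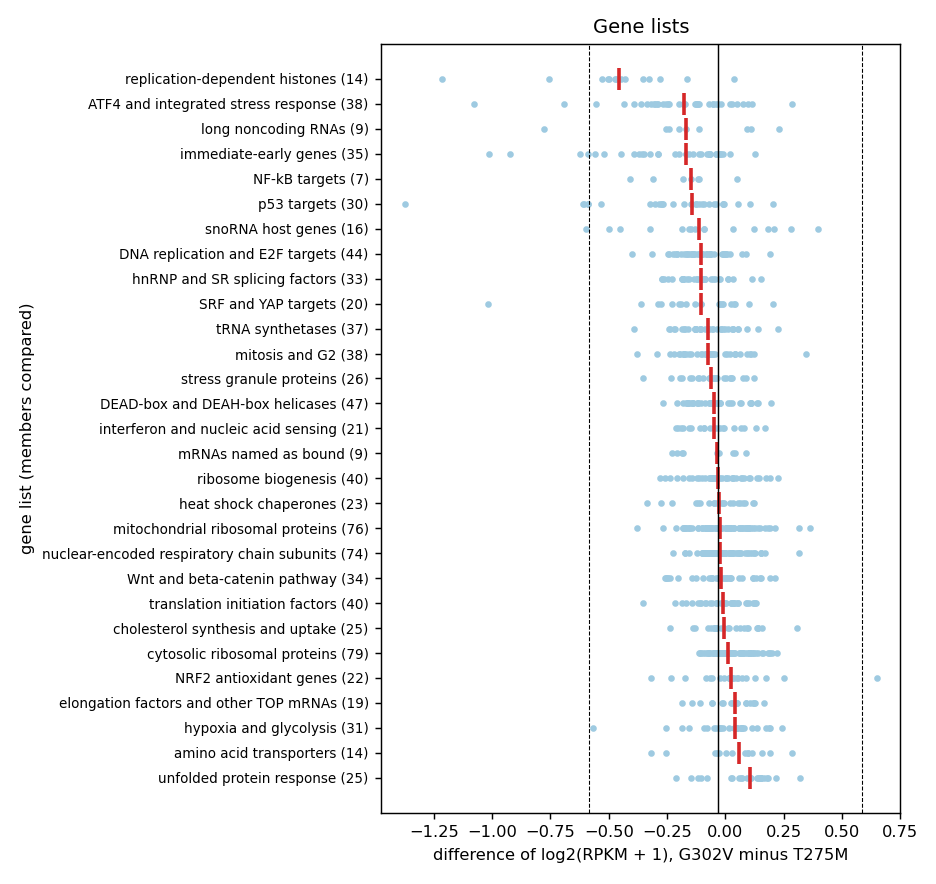
Differences of log2(RPKM + 1), G302V minus T275M (x axis), for the compared members (blue points) of each gene list with at least 7 (number in parentheses on the y axis), with the list median as a red bar, the median of all genes as a solid line and 1.5-fold as dashed lines. Histones (-0.46) lie furthest to the left, the integrated stress response, long noncoding RNA, immediate-early, NF-kB and p53 lists have medians of -0.18 to -0.14, and the unfolded protein response has the highest, 0.11.

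The genes lower in G302V were mostly higher in WT than in GFP, a comparison that uses neither mutant library. Of the 93 genes lower in G302V, 91 were higher in WT than in GFP, beside 62.9% of all genes compared. By 1.5-fold, 231 genes were higher in WT (1.84% of all genes compared). Of the 93, 68 (73.1%) were among these 231, so most of the 231 were not called between the mutants. The median difference WT minus GFP of the 93 was 0.73. Their median level was 1.86 RPKM in GFP, 3.64 in WT, 3.59 in T275M and 1.74 in G302V. Of the 10 genes higher in G302V, 0 were higher in WT by 1.5-fold and 0 lower (background for lower 0.00798%). Across all genes, the difference between the mutants and WT minus GFP had a Pearson's r of -0.571 and a Spearman's rho of -0.507. Against DDX3X siRNA minus control siRNA these were 0.398 and 0.416. These correlations are over genes and not samples, and the points share library depth and base composition within each library.

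**Figure D5:**
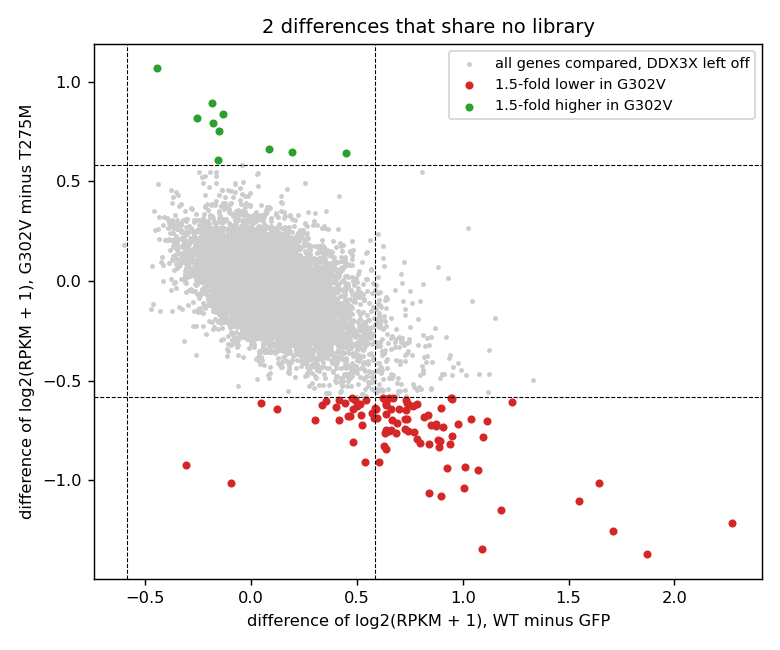
Difference WT minus GFP (x axis) against G302V minus T275M (y axis), both of log2(RPKM + 1), for all genes compared except DDX3X, with dashed lines at 1.5-fold. Of the 93 genes lower in G302V (red, DDX3X not drawn) 91 were higher in WT than in GFP, beside 62.9% of all genes compared. None of the 10 higher genes (green) is past 1.5-fold on the x axis.

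The ZNF symbols and the other lower genes differed in where G302V lay among the plasmid libraries. G302V was the lowest of the 4 in 54 of the 93 genes, made up of 27 of the 35 ZNF symbols and 27 of the 58 others. Among all 7314 compared genes that were lower in G302V than in T275M, it was the lowest in 3537. T275M was the highest of the 4 in 40 of the 93, and in 3457 of those 7314. Choosing genes lower in G302V than in T275M favours both counts. The order of DDX3X itself, rising from GFP through G302V and WT to T275M, was found in 23 of the 57 other lower genes besides DDX3X (40.4%), GDF15, LIF, ACTA2 and GADD45A among them. It was found in 3 of the 35 lower ZNF symbols (8.57%), in 11.2% of all genes compared and in 19.1% of those lower in G302V than in T275M. The difference between the shares was not tested, and the choice of genes fixes the order of G302V and T275M in it.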

How the data were processed

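RNA from HEK293T cells was sequenced in 6 libraries, 1 per group, and groups were taken from the sample labels. The deposited values are RPKM per RefSeq accession, which the authors made, per the methods, by trimming with cutadapt, aligning with BWA 0.5.5 to NCBI Build 37 (hg19), RefSeq, exon pairs and AceView, removing duplicates, counting reads per gene and dividing by length and total reads. The methods call the unit FPKM and the file headers RPKM. How multiply mapped reads were shared between genes or isoforms is not given in the sources used here.

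Each symbol was represented by the one of its rows, of 39618 in all, whose mean RPKM over the 6 files was highest. Reads were recovered from RPKM times row length, since 100% of the low rows checked lay within 0.1 of a whole read. Intervals are exact (Clopper-Pearson) 95% intervals of the share of a gene's reads in G302V, moved to the log2(RPKM + 1) scale. They cover counting error only, since without molecular identifiers a read is not an independent molecule. The log scale with a pseudocount of 1 understates differences of low genes. No count-based test was made, since a group of 1 library has no spread. Recovery and intervals were tested on simulated data.

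The comparison, its members and the gene lists were chosen with earlier results of these data known. Genes could be named by rule: DDX3X and DDX3Y, every gene past 2-fold, the 12 largest differences each way among genes of 5 RPKM or more, up to 5 members of each of 33 lists, and mRNAs named as bound or not bound. Not all of these are described. NACA2, ATP5EP2, GUSBP9 and HSP90AB3P (0.50 to 0.55), among the 12 largest rises, were left out. So were some lists, among them hypoxia and glycolysis (median 0.04), elongation factors and other TOP mRNAs (0.04), SRF and YAP targets (-0.10) and interferon genes (-0.05). ZNF and CLK groups, pseudogenes, parent genes and other genes past 1.5-fold were chosen after the values were seen. Gene positions, gene types and GC content came from GENCODE 44 on GRCh37, matched for 95.9% of the genes compared, and promoters from RefSeq on GRCh38.p14. Alternatives covered the pseudocount, minimum level, minimum length, scaling, CPM, summed rows and a condition on the interval. Python 3.11.15, numpy 2.4.6, pandas 2.3.3 and scipy 1.17.1 were used. Values of some marker genes are not reported here.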

Additional observations from a re-analysis of the deposited data

How the results depend on the processing

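No library could be left out in turn, as each group would be empty. No paired analysis was possible because each group has 1 replicate. Counts are given as 2-fold higher, 2-fold lower, 1.5-fold higher and 1.5-fold lower in G302V, and were 1, 11, 10 and 93. They were 5, 48, 41 and 229 with a pseudocount of 0.1, 0, 0, 0 and 3 with a pseudocount of 10, 0, 2, 2 and 22 with a minimum of 10 RPKM, 6, 19, 34 and 141 with no minimum length (72 of the 175 at 1.5-fold then came from rows under 200 bases) and 0, 38, 21 and 190 with CPM in place of RPKM. Summing the rows of a symbol gave 24 at 2-fold lower, 18 at 1.5-fold higher and 130 at 1.5-fold lower. Without pseudogene symbols 0 were 2-fold higher and 3 were 1.5-fold higher, and without ZNF symbols 58 were 1.5-fold lower, which follows from the genes left out (both chosen after seeing the data). The DDX3X difference of -0.78 became -0.73 with median-ratio scaling and -0.79 with totals that leave out DDX3X reads. Of the 103 genes past 1.5-fold, DDX3X is given above, and none of the other 102 changed direction in a setting that kept it (98 were kept with CPM and 23 with a minimum of 10 RPKM). Of these 102, 100 were under 1.5-fold with a pseudocount of 10 and 22 with median-ratio scaling. The median of the chromosome 19 ZNF symbols, -0.30, was between -0.44 and -0.08 elsewhere and turned to 0.039 with a minimum of 10 RPKM, where 10 genes were left. The medians of 10 lists between -0.05 and 0 turned positive with median-ratio scaling. Depth limits the lower genes, several of which rest on under 100 reads in G302V.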

Other observations

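Genes with long rows were mostly higher in G302V, a grouping chosen after the values were seen. The 232 compared genes with rows of 10000 bases or longer had a median difference of 0.12, with 185 above 0, whereas the 12292 genes with shorter rows had a median of -0.03, with 5024 above 0. The same long rows had a median of 0.04 in WT minus GFP and 0.24 in DDX3X siRNA minus control siRNA. DYNC1H1, the heavy chain of the dynein motor, was at 19.9 RPKM in GFP, 17.6 in WT, 18.2 in T275M, 27.1 in G302V, 25.4 in control siRNA and 38.7 in DDX3X siRNA, with a difference of 0.55 (0.52 to 0.58). MLL2, a histone methyltransferase, was at 4.21 RPKM in GFP, 3.95 in WT, 4.62 in T275M, 6.89 in G302V, 6.39 in control siRNA and 12.1 in DDX3X siRNA, with a difference of 0.49 (0.44 to 0.54). In both genes G302V was the highest of the plasmid libraries and DDX3X siRNA the highest of all. No gene with a row of this length was past 1.5-fold in either direction.

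Of the 6 neuronal markers compared, 1 was lower in G302V at 1.5-fold (0.743% of all genes) and 0 were higher, with 3 below and 3 above 0. SNAP25, a protein of synaptic vesicle fusion, was at 0.115 RPKM in GFP, 1.38 in WT, 1.22 in T275M, 0.290 in G302V, 0.0721 in control siRNA and 0.0727 in DDX3X siRNA, with a difference of -0.78 (-0.95 to -0.59). NEFM, a neurofilament subunit, was at 529.1 RPKM in T275M and 611.3 in G302V (0.21, 0.19 to 0.22). STMN3, a microtubule regulator of the stathmin family that is not on the list, was at 14.7 and 21.1 RPKM (0.49, 0.40 to 0.58), and neither was past 1.5-fold. In WT and GFP, NEFM was at 514.4 and 682.8 RPKM and STMN3 at 12.5 and 17.3 RPKM.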
